A study of Mus musculus with 10 samples.

Results

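Integrins and laminins are the 2 sides of one contact, the attachment of a cell to the basement membrane around it. The genes described here are the protein-coding genes of the mouse integrin alpha, integrin beta and laminin chains, chosen by symbol alone. The choice gave 37 of the 39179 genes listed, namely 18 integrin alpha, 8 integrin beta and 11 laminin genes. They were measured by RNA sequencing in the tibialis anterior, a fast muscle of the lower leg, in 4 control mice injected with PBS and in 6 mice carrying tumors of Lewis Lung Carcinoma (LLC), a cultured mouse lung cancer line that causes cachexia. Both flanks of each mouse were injected. The labels give C57BL/6J mice, 10 weeks old at injection, with muscle taken after 23 days, whereas the methods of the study give C57BL/10 males of 8 weeks studied at 22 days. The labels name no modified allele in either group. The sequenced LLC mice were drawn from the animals that survived to the end, and each library came from 1 mouse. The comparison asks which attachment genes change in the muscle of mice with tumors.

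An integrin is a pair of 1 alpha and 1 beta chain that spans the cell membrane, binds matrix or another cell outside, and connects to actin inside through talin, kindlin and related adaptors. A laminin is a trimer of an alpha, a beta and a gamma chain that assembles with collagen IV, nidogen and perlecan into the basement membrane. In muscle, the Itga7 and Itgb1 pair and dystroglycan hold the fiber to laminins that carry the Lama2 chain, and loss of Lama2 or Itga7 causes congenital muscle disease. Leukocytes use another set, built on Itgb2, to stick to the vessel wall and to phagocytose.

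Total counts per sample ranged from 16693209 in LLC 1 to 21303084, and 3 counts, taken as the floor of detection, corresponded to 0.148 to 0.174 CPM (counts scaled to a common library total, here with TMM factors). This covers counting error only. The 8 myofiber markers summed to 119300 to 125700 CPM in the control group and 79490 to 128500 in LLC, so the samples carried the markers of their labelled tissue, with LLC 1 lowest. The mitochondrial share of counts was 22.0% to 27.9% in LLC, below the 28.4% to 30.7% of the control group in every sample, with LLC 1 and LLC 5 lowest. Among the 30 subunits tested, LLC 1 held the LLC value farthest from the group median in 16, a share of 53.3% that compares with 53.9% over all tested genes. LLC 5 held it in 6 subunits.

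Of the 37 subunits, 30 had enough reads to be tested. The other 7, Itgb8, Itgad, Itgae, Itgax, Itga2, Lama1 and Lamb3, had at most 8 counts in any sample. Of the tested 30, 5 passed the threshold of an adjusted p of 0.05 or less (edgeR quasi-likelihood test, Benjamini-Hochberg over 12690 genes) and a change of at least 1.5-fold. Itgam and Itgb2, the chains of a leukocyte integrin, were higher in LLC, and Lamb1, Itga11 and Lamc3 were lower. Over all tested genes, 5.63% passed, 1.65% as higher and 3.99% as lower. DESeq2 called 6 of the 30, these 5 and Itgal as higher, where it called 8.29% of all tested genes, 3.06% as higher and 5.23% as lower. With no test, 4 subunits were lower in LLC with no overlap between the groups (Lamb1, Lamc1, Itga11 and Lamc3) and 3 were higher (Itgb5, Itgam and Itgb2), where 9.57% and 6.4% of all tested genes were. The median log2 fold change was -0.16 over the tested subunits and 0.002 over all tested genes. The subunits were put in 4 classes by the cells in which textbook knowledge places them, and the cells that express them here were not identified. Of 6 muscle-fiber subunits 1 passed, lower, and of 14 stromal subunits, 13 of them tested, 1 passed, lower. Of 10 leukocyte and platelet subunits, 7 of them tested, 2 passed, both higher, and of 7 epithelial subunits, 4 of them tested, 1 passed, lower. All 5 kept their call when any 1 sample was left out. Itgam, Itgal, Itga2b and Itgb3 passed the filter on low counts through their LLC samples, with 10 counts in 1, 3, 2 and 2 control samples. Lamc3 and Itga11 passed it through their control samples.

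**Figure D1:**
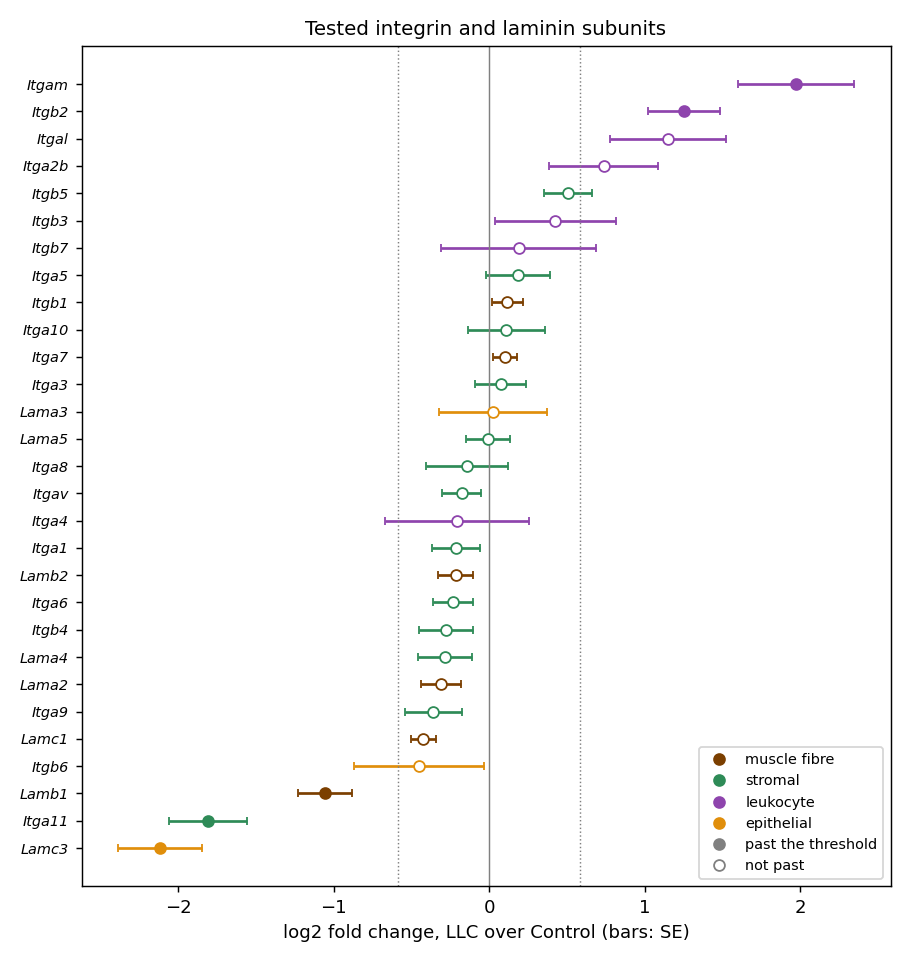
Log2 fold change of LLC over control for 29 of the 30 tested subunits, with bars of 1 SE, colored by class. Filled points are past the threshold and dotted lines mark 1.5-fold. The leukocyte subunits Itgam, Itgb2, Itgal and Itga2b occupy the upper end, and Lamb1, Itga11 and Lamc3 the lower end. Of the former, all but Itgb2 passed the filter on low counts through their LLC samples.

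Of the 5 genes, 3 had an entry in the RefSeq promoter table, and their 250 bases before the RefSeq start are shown because each gene passed the threshold (GRCm38.p6, plus strand). For Lamb1 and Itga11 that start lies downstream of the GENCODE start used for the coordinates given with each gene, so their windows reach into those gene models. Capitals mark matches on either strand to GAGGAA, a core bound by ETS family factors such as the myeloid factor PU.1, and to GGGCGG, the GC box of SP1.
Itgam, chr7:128062390-128062639: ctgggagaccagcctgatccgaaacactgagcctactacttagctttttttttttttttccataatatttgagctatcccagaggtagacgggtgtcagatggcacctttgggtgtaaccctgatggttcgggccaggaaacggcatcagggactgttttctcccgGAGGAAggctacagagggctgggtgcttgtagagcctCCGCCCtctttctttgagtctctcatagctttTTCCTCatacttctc
Lamb1, chr12:31265043-31265292: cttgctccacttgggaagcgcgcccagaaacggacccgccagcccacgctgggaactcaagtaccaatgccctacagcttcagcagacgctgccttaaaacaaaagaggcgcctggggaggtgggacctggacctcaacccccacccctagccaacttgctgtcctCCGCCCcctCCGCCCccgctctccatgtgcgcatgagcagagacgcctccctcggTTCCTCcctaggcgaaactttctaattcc
Itga11, chr9:62677605-62677854: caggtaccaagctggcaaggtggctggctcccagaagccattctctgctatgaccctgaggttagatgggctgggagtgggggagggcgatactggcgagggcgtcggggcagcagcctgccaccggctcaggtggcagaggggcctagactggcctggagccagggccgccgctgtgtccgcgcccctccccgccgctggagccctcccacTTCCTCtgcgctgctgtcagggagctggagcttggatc
The Itgam window held 2 GAGGAA matches and 1 GGGCGG match, with a GC content of 49.6%. The Lamb1 window held 1 and 2 matches and was 62.0% GC. The Itga11 window held 1 GAGGAA match and no GGGCGG, at 68.4% GC. Among 32851 windows of the same length, 23.25% held GAGGAA and 32.74% held GGGCGG, and the median GC content was 52.4%. A match describes the letters only. Itgb2 and Lamc3 were not in the table.

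Of the muscle-fiber subunits, Lamb1 fell past the threshold, Lamc1 fell by less than 1.5-fold, and the integrin chains Itga7 and Itgb1 did not pass the test. Lamb1 (ENSMUSG00000002900, chromosome 12, 31265234 to 31329644, plus strand) encodes a beta chain found in most basement membranes. It measured 13.3, 13.0, 13.7 and 17.3 CPM in control samples 1 to 4, and 4.53 to 8.67 CPM in LLC with a median of 7.31. Every LLC sample was below every control sample, and LLC 1 and LLC 5 were lowest. The group means were 14.3 ± 2.00 (SD, n = 4) and 6.90 ± 1.60 CPM (SD, n = 6), a 2.08-fold decrease. On the log2 scale the fold change was -1.06 ± 0.17 (SE), at an edgeR adjusted p of 0.00376.

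Lamc1 (ENSMUSG00000026478, chromosome 1, 153218922 to 153332786, minus strand), the main laminin gamma chain, showed a smaller difference. Its control samples measured 63.2, 66.6, 62.7 and 69.3 CPM, and its LLC samples measured 43.5 to 54.8 CPM with a median of 48.4. The groups did not overlap. The log2 fold change was -0.42 ± 0.08, and the edgeR adjusted p was 0.00998, but the 1.34-fold decrease did not reach 1.5-fold. By adjusted p alone, 4.85% of all tested genes were lower. Lama2, the alpha chain whose loss causes muscular dystrophy, read 23.5, 25.1, 26.6 and 25.8 CPM in the control group and 16.7 to 27.3 CPM in LLC with a median of 19.3. Of its 6 LLC samples, 5 were below the control range and LLC 1 was above it. Its log2 fold change was -0.31 ± 0.13 with an edgeR adjusted p of 0.146, and without LLC 1 it was -0.41 with an adjusted p of 0.00879, a change still under 1.5-fold. Lamb2, a beta chain enriched at the neuromuscular junction, measured 135, 123, 138 and 150 CPM in the control group and 89.2 to 134 CPM in LLC, with a median of 122. Its groups overlapped, and its log2 fold change of -0.22 ± 0.11 had an edgeR adjusted p of 0.231.

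Itga7, the alpha chain of the laminin receptor of the fiber, measured 77.3, 78.4, 80.1 and 87.0 CPM in the control group and 82.4 to 93.9 CPM in LLC with a median of 85.8. The groups overlapped, and the log2 fold change of 0.10 had a 95% interval from -0.06 to 0.27. Itgb1, its partner and the common beta chain of many integrins, read 161, 160, 156 and 154 CPM in the control group and 155 to 210 CPM in LLC with a median of 167. LLC 1 alone stood at 210 CPM, while the other LLC samples were within 155 to 171. Without LLC 1 the log2 fold change was 0.06. With all samples, the log2 fold change of 0.12 had a 95% interval from -0.10 to 0.33. Thus a fall of 1.5-fold lay outside the interval for either receptor chain. The adjusted p of the pair was 0.385 for Itga7 and 0.440 for Itgb1 (edgeR). Of the whole laminin family, 8 of 9 tested genes had a negative log2 fold change, with a median of -0.31, where 49.7% of all tested genes were negative. Among these, Lamc3 was tested through its control samples, where it is high. Lama5, at -0.009, turned positive when some single samples were left out. The integrin alpha genes had 7 negative and 7 positive, and the integrin beta genes 2 negative and 5 positive.

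The share of Lamb1 among the laminin beta chains was also lower. Per kilobase of exons, Lamb1 was 6.04% of summed laminin beta level in the control group (5.70% to 6.62%) and 3.44% in LLC (2.88% to 3.85%), with no overlap. The ratio of Lamb2 to Lamb1 was 15.6 in the control group, from 14.1 to 16.5, and 28.4 in LLC, from 24.9 to 33.7. These ratios are within a sample and so do not depend on library scaling. The ratio of Itgb1 to Itga7 overlapped between the groups, at 3.88 ± 0.28 in the control group and 3.92 ± 0.50 in LLC.

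**Figure D2:**
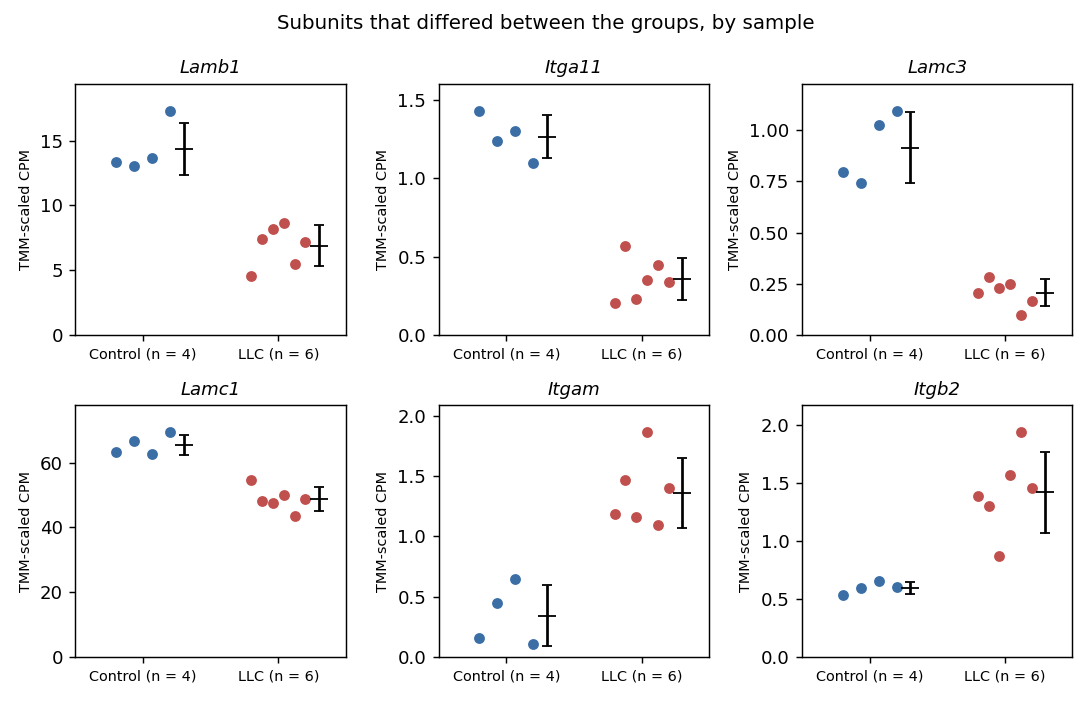
TMM-scaled CPM in each sample for the 5 subunits past the threshold and Lamc1, with the mean and SD to the right of each group (control n = 4, LLC n = 6). In every panel the groups do not overlap, with Lamb1 at 13.0 to 17.3 CPM in control and 4.53 to 8.67 CPM in LLC.

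Of the stromal subunits only Itga11 passed, and it fell. Itga11 (ENSMUSG00000032243, chromosome 9, 62677826 to 62783982, plus strand) is a collagen receptor chain of fibroblasts. It measured 1.43, 1.23, 1.30 and 1.10 CPM in the control group and 0.206 to 0.565 CPM in LLC, with a median of 0.344. All LLC samples were below all control samples. These are 20 to 27 counts against 4 to 10. The log2 fold change was -1.81 ± 0.25 with an edgeR adjusted p of 0.00129, a 3.51-fold decrease. Itga1, the collagen receptor chain of smooth muscle and other cells, was at 8.51 ± 0.347 CPM in control and 7.34 ± 1.62 CPM in LLC, and Itga10 at 0.769 ± 0.205 and 0.828 ± 0.198 CPM.

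The summed level of 8 fibroblast markers ran from 258 to 332 CPM in the control group and from 52.4 to 88.4 CPM in LLC. Of these markers 8 of 8 passed as lower, beside 3.99% of all tested genes. Dpp4 reached 10 counts in 4 control and 0 LLC samples, so it was tested through its control samples, where it is high. The summed mural cell markers (702 to 733 against 434 to 679 CPM) and tenocyte markers (62.1 to 69.1 against at most 28.9 CPM) did not overlap either. Of the mural markers 5 of 8 passed as lower, and Abcc9 was at a log2 fold change of 0.01. Of the tenocyte markers 3 of 4 tested passed as lower, and Scx was at -0.08. Tnmd, 1 of these 3, was tested through its control samples, with 10 counts in 0 LLC samples. Schwann cell markers (30.0 to 34.9 against 14.5 to 22.9 CPM, 2 of 5 tested past the threshold) and satellite cell markers (19.7 to 22.4 against 10.5 to 13.1 CPM, 3 of 5) did not overlap between the groups, while endothelial markers overlapped between the groups (363 to 434 against 345 to 399 CPM, 1 of 8 lower). The part of these cells in the lower levels of Lamb1, Lamc1, Lamc3 and Itga11 was not tested, and in bulk tissue fewer cells of a type cannot be told apart from less RNA per cell.

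Itgb5, which pairs with Itgav to bind vitronectin, was the stromal subunit nearest to a rise. It measured 96.6, 88.7, 91.9 and 86.3 CPM in the control group and 111 to 187 CPM in LLC, with a median of 113. Every LLC sample was above every control sample, with LLC 5 highest. With a log2 fold change of 0.51 ± 0.15, under 1.5-fold, and an edgeR adjusted p of 0.0715, it did not pass. DESeq2 gave an adjusted p of 0.0234. Without LLC 1 the edgeR adjusted p was 0.0263 at a log2 fold change of 0.56, and without LLC 5 it was 0.0536 at 0.37, both still under 1.5-fold. Itgb5 made up 36.0% of summed integrin beta level per kilobase in the control group (35.2% to 37.0%) and 43.1% in LLC (37.2% to 53.4%). Its partner Itgav was at 21.2 ± 2.35 CPM in control and 18.7 ± 2.69 CPM in LLC.

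Itga9, a receptor chain for tenascin C and osteopontin, read 2.07, 2.72, 2.65 and 2.96 CPM in the control group and 1.57 to 2.67 CPM in LLC with a median of 2.00, and the groups overlapped (log2 fold change -0.36 ± 0.18, edgeR adjusted p = 0.219). The laminin chains of vessels, Lama4 and Lama5, were at 15.4 ± 1.19 and 46.9 ± 1.31 CPM in the control group and at 12.6 ± 3.10 and 46.6 ± 10.0 CPM in LLC. The fibronectin receptor chain Itga5, the laminin receptor chains Itga3 and Itga6, the Itga6 partner Itgb4 and the nephronectin receptor chain Itga8 had log2 fold changes between -0.28 and 0.19, with edgeR adjusted p from 0.251 to 0.795. Without LLC 1, Itga5 went from 0.19 to 0.04.

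The 2 subunits that rose were both leukocyte chains. Itgam (ENSMUSG00000030786, chromosome 7, 128062640 to 128118491, plus strand), known as CD11b, is the alpha chain of the complement receptor of neutrophils and macrophages. It was at 0.159, 0.444, 0.649 and 0.110 CPM in the control group and at 1.09 to 1.86 CPM in LLC with a median of 1.29. Control samples 1 and 4 were at or below the floor of 3 counts, and all LLC samples were above the control range. Counts were 2 to 12 in the control group and 20 to 37 in LLC. The log2 fold change was 1.97 ± 0.37 with an edgeR adjusted p of 0.00875. Its exons overlap the gene model Gm49368 on the same strand, so reads could be split between them.

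Itgb2 (ENSMUSG00000000290, chromosome 10, 77530252 to 77565708, plus strand) encodes CD18, the beta chain shared by the leukocyte integrins. It measured 0.530, 0.593, 0.649 and 0.603 CPM in the control group and 0.869 to 1.93 CPM in LLC with a median of 1.42. The groups did not overlap, and LLC 5 was highest. Its log2 fold change of 1.25 ± 0.23 had an edgeR adjusted p of 0.00760. Itgal, the alpha chain that with Itgb2 forms LFA-1, measured 0.795, 0.494, 0.433 and 0.986 CPM in the control group and 0.566 to 2.17 CPM in LLC with a median of 1.46. Of the LLC samples, 5 were above the control range and LLC 1 was within it. The log2 fold change was 1.15 ± 0.37 with an edgeR adjusted p of 0.0872, and without LLC 1 it was 1.33 with an adjusted p of 0.0109. DESeq2 gave an adjusted p of 0.0321 with all samples. Itgal was tested through its LLC samples, as only 3 of its control samples reached 10 counts.

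Neutrophil markers moved the same way, from a summed 0.900 to 2.37 CPM in the control group to 32.2 to 71.1 CPM in LLC, and all 7 tested of 8 passed as higher. These 7 reached 10 counts in at most 1 control sample each. They entered the test through their LLC samples, where they are high, so the count of calls is no independent support. The macrophage sum was 15.5 to 23.1 CPM in the control group and 9.73 to 17.1 CPM in LLC, with 1 of 7 tested, Mrc1, past the threshold as lower. T cell markers summed to at most 0.494 CPM and B cell markers to at most 0.857 CPM in any sample. The part of these cells in the higher Itgam and Itgb2 was not tested.

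Itga2b, the platelet fibrinogen receptor chain, read 0.530, 0.395, 0.703 and 0.219 CPM in the control group and 0.504 to 1.14 CPM in LLC with a median of 0.704, and the groups overlapped (log2 fold change 0.74 ± 0.35, edgeR adjusted p = 0.197). Its partner Itgb3 was at 0.551 ± 0.224 CPM in control and 0.739 ± 0.383 CPM in LLC, and Itgb7, of gut-homing lymphocytes, at 0.506 ± 0.190 and 0.567 ± 0.391 CPM. Platelet markers summed to 4.54 to 5.09 CPM in the control group and 2.47 to 5.48 CPM in LLC, with 1 of 2 tested, Pf4, past the threshold as lower. Pf4 was tested through its control samples, as only 3 of its LLC samples reached 10 counts.

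Itga4, the alpha chain of the receptor for Vcam1, and Itgb6, an epithelial partner of Itgav that activates latent TGF-beta, had control levels far above the other genes of their classes. Itga4, chosen for this description after its values were seen, measured 14.6, 15.3, 11.3 and 13.2 CPM in the control group. In LLC it ran from 1.59 to 18.0 CPM with a median of 13.8, and LLC 1 at 1.59 and LLC 5 at 6.10 were the samples below the control range. Itgb6 measured 41.4, 38.3, 39.9 and 42.8 CPM in the control group and 5.50 to 45.2 CPM in LLC with a median of 33.0. LLC 1 at 5.50 and LLC 5 at 17.3 were again lowest. Neither gene passed, with log2 fold changes of -0.21 ± 0.46 and -0.45 ± 0.42 and edgeR adjusted p of 0.789 and 0.485. Without LLC 1 they were 0.03 with an adjusted p of 0.949 and -0.23 with an adjusted p of 0.486, and without LLC 5 they were -0.07 and -0.34, with adjusted p of 0.936 and 0.641. T and B cell markers were near the floor in all samples, and the 6 epithelial markers summed to at most 0.493 CPM, with Krt5 and Krt14 at 0 in every sample, below Itgb6 in each of them. The epithelial class name of Itgb6 is thus not borne out by these markers in this muscle. The exons of Itga4 overlap Cerkl on the other strand, and the strand setting of the counts is not known. Genes on the other strand also overlap the exons of Lama2, Itga7, Itgb4, Itga8, Itgav and Lama3.

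**Figure D3:**
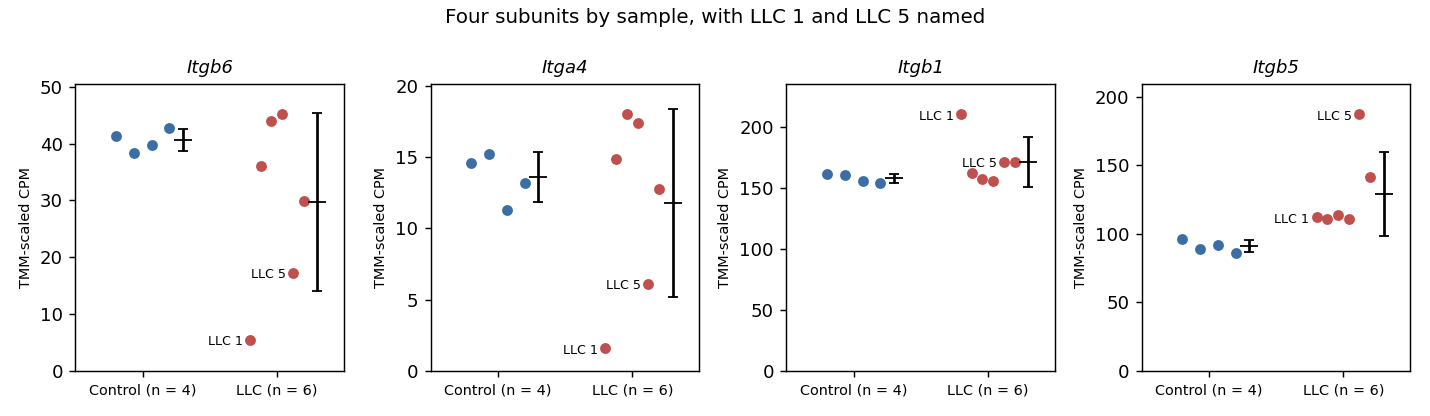
TMM-scaled CPM by sample for Itgb6, Itga4, Itgb1 and Itgb5, with the mean and SD beside each group (control n = 4, LLC n = 6). LLC 1 and LLC 5 are lowest for Itgb6 (5.50 and 17.3 CPM) and Itga4 (1.59 and 6.10 CPM), LLC 1 is highest for Itgb1 and LLC 5 for Itgb5.

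Lamc3 (ENSMUSG00000026840, chromosome 2, 31887291 to 31946539, plus strand) is a gamma chain known from brain and skin, and it had the lowest log2 fold change of the tested subunits. It was at 0.795, 0.741, 1.03 and 1.10 CPM in the control group and at 0.0992 to 0.282 CPM in LLC with a median of 0.219. The groups did not overlap. Counts were 15 to 20 against 2 to 5, so the LLC samples were near the floor. Its log2 fold change of -2.12 ± 0.27 had an edgeR adjusted p of 0.000866. Gm13441 overlaps it on the other strand. The 6 epithelial markers summed to 0.247 to 0.493 CPM in the control group, below Lamc3 in each control sample. The epithelial class name of Lamc3 is thus not borne out by these markers either. As a share of summed laminin gamma level per kilobase, Lamc3 was 1.84% in control and 0.562% in LLC, without overlap. Lama3, an alpha chain of epithelial basement membranes, was at 1.23 ± 0.319 CPM in control and 1.24 ± 0.672 CPM in LLC. Its log2 fold change was 0.02 with all samples and -0.30 without LLC 1.

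Levels between genes were compared as CPM per kilobase of exons in the control group. Among integrin alpha genes Itga7 was highest at 9.97 ± 0.536, followed by Itga6 at 3.75 ± 0.429, and these did not overlap. Itga5 at 2.05 and Itgav at 1.97 overlapped each other, as did Itga3 at 1.03 and Itga4 at 0.973. Itga1 at 0.458 came next, then Itga9 at 0.338 and Itga11 at 0.246, which overlapped. Itga10, Itgal, Itga8, Itga2b and Itgam were below 0.15 with each overlapping its neighbor, and Itgam was last at 0.0678. In LLC it was at 0.271. Among integrin beta genes the order was Itgb1 at 38.6, Itgb5 at 25.6, Itgb6 at 5.71 and Itgb4 at 0.565, with no neighbors overlapping, and then Itgb2 at 0.194, Itgb7 at 0.183 and Itgb3 at 0.0934, with each overlapping the next. Among laminins Lamb2 led at 22.4 ± 1.79, followed by Lamc1 at 7.92 ± 0.374 and Lama5 at 4.12 ± 0.115. Lama2 at 1.55, Lamb1 at 1.45 and Lama4 at 1.27 overlapped in turn, and Lamc3 at 0.150 and Lama3 at 0.114 were lower and overlapped each other. In LLC, Lamb1 lay at 0.696 and Lama2 at 1.24.

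**Figure D4:**
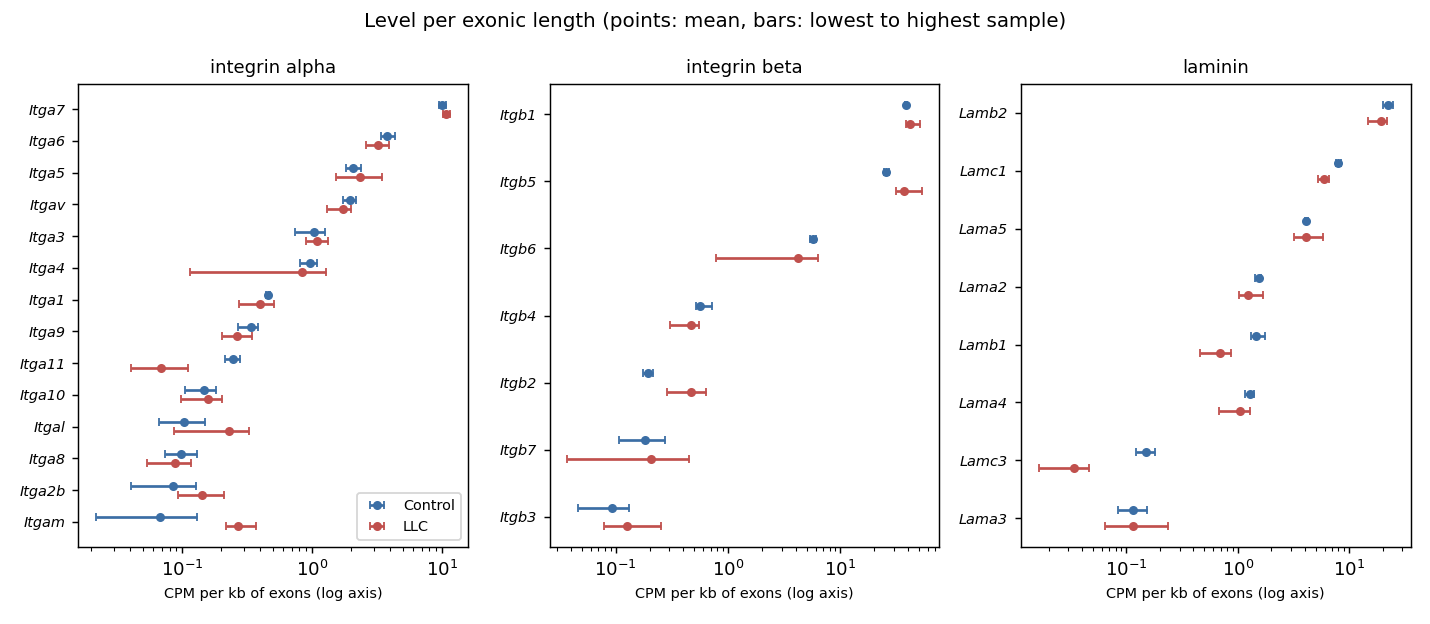
Level per kilobase of exons (log axis) of tested subunits in each family, with points for the group mean and bars from the lowest to the highest sample. Itga7, Itgb1 and Lamb2 have the highest mean of their families in both groups, and Itga11, Lamb1, Lamc1 and Lamc3 have LLC ranges wholly below the control range.

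The spread within LLC was larger than in the control group (SD of log2 CPM) for 23 of the 30 tested subunits, where 85.1% of all tested genes were so. For Itga7 the CV was 5.38% in control and 5.30% in LLC, and for Lamc1 4.73% and 7.47%. For Itgb6 it was 4.81% and 52.7%, and for Itga4 12.9% and 55.9%.

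The genes that work with the subunits were taken from 3 lists of 68 genes, 62 of them tested, of which 1 passed as higher and 11 as lower, beside 1.65% and 3.99% of all tested genes. The lists were made with earlier results of these data known, so these shares are descriptive and no independent support. The study had already reported Col1a1, Col6a1 and Thbs4 as lower in these samples. Of 22 other integrin ligands, 19 were tested and 9 were lower, with a median log2 fold change of -1.01. The largest falls were in Postn and Col1a1, a matricellular protein and the main fibrillar collagen chain. Postn went from 4.63 ± 1.18 to 0.546 ± 0.383 CPM (log2 fold change -3.09 ± 0.36, edgeR adjusted p = 0.000553) and Col1a1 from 45.8 ± 6.50 to 5.39 ± 2.50 CPM (-3.08 ± 0.29, 0.000184). Col6a1 (-2.23 ± 0.20), Tnc, the tenascin bound by Itga9 (-2.13 ± 0.30), Nid2, a nidogen that ties laminin gamma chains to collagen IV (-1.74 ± 0.19), and Thbs4 (-1.54 ± 0.28) were lower with edgeR adjusted p from 0.000184 to 0.00770. Col1a1 is also one of the 8 fibroblast markers. Postn and Tnc reached 10 counts in all 4 control samples but in only 3 and 2 LLC samples. These 2 genes entered the test through their control samples, where they are high.

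Of 30 adhesion adaptors, 27 were tested and 2 passed, a share near the 5.63% of all tested genes. Lims2, a PINCH protein of the complex with Ilk, was at 23.6 to 30.2 CPM in the control group and 13.3 to 16.0 CPM in LLC (log2 fold change -0.79 ± 0.10, edgeR adjusted p = 0.000630). Actn1, a non-muscle alpha-actinin, was at 4.69 to 6.46 CPM in the control group and 9.38 to 13.5 CPM in LLC (0.99 ± 0.15, edgeR adjusted p = 0.00216). Neither overlapped between the groups, and genes annotated on the opposite strand overlap both. Ilk itself was listed with only 2 to 11 counts and was not tested, and Rrp8 and Taf10 overlap it on the opposite strand. The adaptor list had a median log2 fold change of -0.08.

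The third list held dystroglycan, the other laminin receptor of the fiber, its complex and the enzymes that glycosylate it. It also held the matrix genes Hspg2 and Agrn, and Bcam, a separate laminin receptor. All 16 genes were tested and 1 was lower, a share near the 3.99% of all tested genes. That gene was Hspg2, encoding the basement membrane proteoglycan perlecan, at 161 to 192 CPM in the control group and 76.0 to 152 CPM in LLC (log2 fold change -0.60 ± 0.16, edgeR adjusted p = 0.0471). Dag1, encoding dystroglycan itself, did not pass (log2 fold change 0.04 ± 0.12, edgeR adjusted p = 0.854). The median of the list was -0.12.

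**Figure D5:**
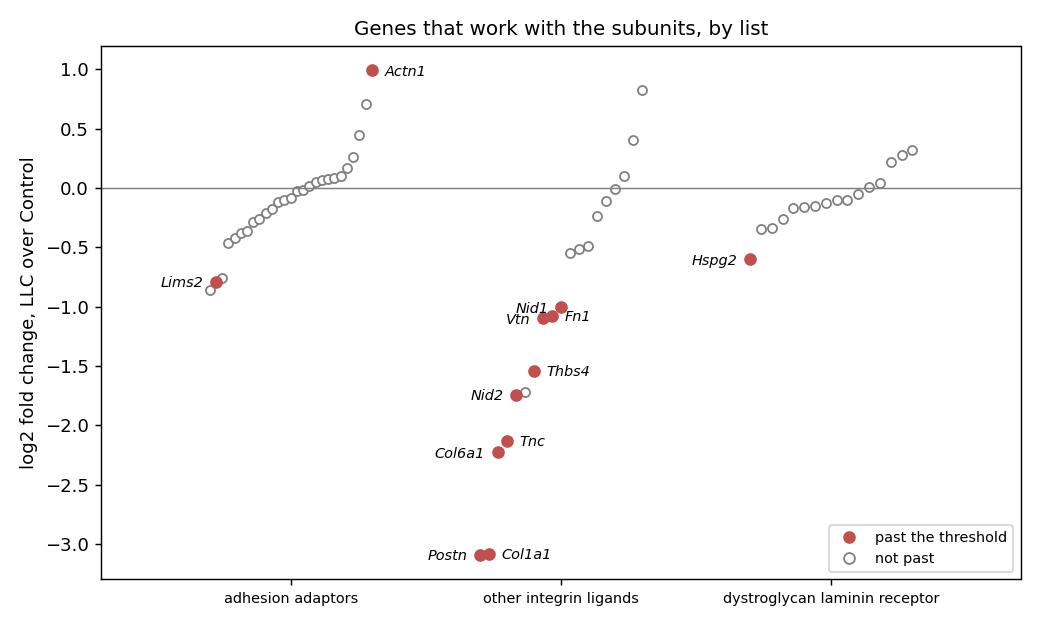
Log2 fold change of LLC over control for the 62 tested genes of 3 lists, with filled points past the threshold. The other integrin ligands reach -3.09 and 9 of 19 are filled, against 2 of 27 adaptors. In the dystroglycan list 1 of 16 genes is filled, the matrix gene Hspg2. The lists were made with earlier results of these data known.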

How the data were processed

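RNA was measured in 10 tibialis anterior samples, 4 Control and 6 LLC, grouped by their labels. Per the labels and the methods of the study, the authors extracted total RNA with TRIzol, made stranded total RNA libraries, mapped reads to mm10 with TopHat2 and counted them with HTSeq at default settings. The deposited values are raw read counts per gene, not normalized, listed by Ensembl identifier although RefSeq genes are named in the methods, so the annotation and the strand setting behind the counts are uncertain.

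Genes passing filterByExpr (count minimum 10) were scaled by TMM and compared by the quasi-likelihood test of edgeR 4.0.16 (R 4.3.3, limma 3.58.1), with group as the only term. The authors used DESeq2, run here as an alternative (1.42.0). Exon lengths and overlaps came from GENCODE for GRCm38, and promoters from RefSeq (23 of 37 subunits matched). The classes, marker lists and partner lists, and the choice of subunits, were made with earlier results of these data known. Values in every sample were given for subunits past the threshold, for the muscle-fiber subunits and for the 2 largest changes per class among the others, and each partner list shows at most 6 genes past the threshold. A tested subunit that did not pass the threshold is counted but not reported here. No 2 libraries were alike within sampling noise (chi-square per degree of freedom of 3.71 or more). Replicate numbers belong to different animals and same-numbered samples did not deviate together (correlations from -0.08 to 0.13), so no block was used. Alternatives covered scaling, filter, test, threshold, block and each sample left out.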

Additional observations from a re-analysis of the deposited data

Results flagged for a closer look

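Each of the 30 tested subunits was examined in each group for a sample far from the others, 60 groups in all, of which chance flags about 1 in 20, or 3. There were 3. Itgb1 in LLC 1 was at 210 CPM while the other LLC samples were at 155 to 171 CPM. On the log2 scale, used for all 3 gaps given here, this was a gap of 0.682 of the range of the group. Lamb1 in control sample 4 was at 17.3 CPM while the others were at 13.0 to 13.7 CPM, a gap of 0.830 of the range, and without that sample its log2 fold change was -0.95 with an edgeR adjusted p of 0.0184. Itgb4, the partner of Itga6, was at 5.03 CPM in control sample 3 against 3.60 to 3.62 CPM in the others, a gap of 0.989 of the range.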

How the results depend on the processing

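The 5 calls held under other library scaling, no filter, DESeq2, limma voom and each sample left out, and changed under the strict filter and the block. When all samples had to reach 10 counts, Itga11, Lamc3 and Itgam could not be tested. This left 1 subunit higher, 1 lower, 0 stromal and 1 leukocyte, and 9 partner genes past the threshold. With the replicate block, a pairing that the labels do not support because the numbers belong to different animals, and in which 1 of 4 numbers correlated best with itself, 0 subunits passed as higher and 0 as lower, so 0 muscle-fiber, 0 stromal and 0 leukocyte subunits, and 7 partner genes passed. Over all genes that fit called 112, and Lamb1 then had a log2 fold change of -1.02 (adjusted p = 0.0609). Without a minimum change, 2 muscle-fiber subunits passed.

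The sign turned for subunits near 0. Itga5 was -0.07 with voom, Lama5 was 0.002 with median-of-ratios factors, with no filter and with DESeq2 and 0.065 with the block, Itga4 was 0.093 with voom, Itgb7 was -0.32 with the block, and Lama3 was -0.021 with upper-quartile factors and -0.27 with voom. The cause was not tested. Leaving out 1 sample gave ranges of -0.061 to 0.186 for Itga3, -0.27 to 0.012 for Itga8, -0.029 to 0.23 for Itga10, -0.13 to 0.053 for Lama5, -0.37 to 0.028 for Itga4, -0.005 to 0.45 for Itgb7 and -0.30 to 0.19 for Lama3. Counts ranged from 2 to 3 subunits higher (also 2 to 3 leukocyte, Itgal joining without LLC 1), 3 lower, 1 muscle-fiber, 1 stromal and 11 to 13 partner genes. Apart from left-out samples, 271 of 289 values kept their direction and their side of the threshold. At this depth, changes in the 7 subunits with at most 8 counts in any sample could not be tested.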

Other observations

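Some partner genes did not pass the threshold but had sizable differences, and are given here after their values were seen. Itgb1bp2, also known as melusin, a muscle protein that binds the tail of Itgb1, had a log2 fold change of -0.86 ± 0.36 and an edgeR adjusted p of 0.158. Spp1, encoding osteopontin, had -1.72 ± 0.50 and 0.0598. Icam1 and Vcam1, the endothelial ligands of leukocyte integrins, were at 0.83 ± 0.28 and -0.55 ± 0.18, with adjusted p of 0.0993 and 0.0956.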
